A study of Mus musculus with 96 samples.

Results

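Interferon-induced antiviral effector genes were followed as a group of 10 among the 19918 genes with deposited counts: Ifit1, Ifit3, Rsad2, Oasl2, Isg15, Usp18, Ifi44, Ifitm3, Ube2l6 and Parp9. They were chosen by their measured XX minus XY fold change in these same libraries, where they stood below 0. That contrast is therefore described here and not tested. All 10 genes passed the filter on low counts in both brain regions. Polyadenylated RNA was sequenced from punches of the nucleus accumbens (NAc) and the prefrontal cortex (PFC) of the same 48 mice, which gave 96 libraries. The animals were FCG mice, a model in which Sry, the gene that starts testis development, is missing from the Y chromosome (written Y-) and can be supplied by a transgene on an autosome. XXSry mice had testes (6 stressed and 6 control animals), XX mice had ovaries (6 and 5), XY-Sry mice had testes (6 and 6) and XY- mice had ovaries (6 and 7). Stressed mice went through subchronic variable stress, 3 restraint sessions of 1 hour on alternating days within 6 days, and controls were left unstressed. The age of the mice is not given in the sources used here.

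XX below stands for XXSry and XX mice together, and XY for XY-Sry and XY- mice together. Every XY mouse carried the Y- chromosome, and every mouse with testes carried the Sry transgene, so gonads and transgene cannot be told apart. The Y- chromosome of FCG stocks has been reported to hold a translocated piece of the X chromosome that includes Tlr7, a receptor for single-stranded RNA. The mice came from 3 cohorts, and no XX or XXSry control came from cohort 3.

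Type I interferons are secreted proteins that cells release when they sense foreign or misplaced nucleic acid. They bind the receptor pair Ifnar1 and Ifnar2, which activates the kinases Jak1 and Tyk2 and, through them, a complex of transcription factors that includes Irf9. The complex binds an interferon-stimulated response element near the start of many genes, and in the brain microglia, astrocytes, endothelium and neurons can all respond. Ifit1 and Ifit3 belong to a family that binds viral RNA and blocks its translation. Rsad2 (viperin) makes a nucleotide analogue that ends viral RNA synthesis, Oasl2 is a 2′-5′-oligoadenylate synthetase-like protein, and Ifitm3 hinders the fusion of viruses in endosomes. Isg15 is a ubiquitin-like modifier, Ube2l6 is the conjugating enzyme that passes it on to target proteins, and Usp18 removes it again and also dampens the interferon receptor. Parp9 works with the ubiquitin ligase Dtx3l, and Ifi44 is an interferon-induced protein whose molecular role is less settled.

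The genes lie on different chromosomes of the mouse genome GRCm38, except that Ifit1 and Ifit3 are neighbours on chromosome 19. Promoter sequences are shown because the members are known interferon targets and because they varied together from library to library. RefSeq promoters of GRCm38.p6, from 250 bases before to 50 bases after the start site, were at hand for 8 of the 10 genes, not for Usp18 and Parp9. They were searched for GAAANNGAAA on either strand (TTTCNNTTTC on the strand shown), a 10-base core of the interferon-stimulated response element, with overlapping matches counted separately. Matches are in capitals, all other bases in lower case, and each sequence reads 5′ to 3′ along the gene's own strand.
Ifit1 (chr19:34640639-34640938, plus strand): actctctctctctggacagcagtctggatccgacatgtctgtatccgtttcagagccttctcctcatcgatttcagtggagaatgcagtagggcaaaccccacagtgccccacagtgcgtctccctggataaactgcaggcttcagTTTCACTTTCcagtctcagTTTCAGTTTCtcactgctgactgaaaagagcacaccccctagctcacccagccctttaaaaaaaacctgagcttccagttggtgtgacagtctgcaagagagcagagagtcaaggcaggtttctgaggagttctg
Ifit3 (chr19:34583279-34583578, plus strand): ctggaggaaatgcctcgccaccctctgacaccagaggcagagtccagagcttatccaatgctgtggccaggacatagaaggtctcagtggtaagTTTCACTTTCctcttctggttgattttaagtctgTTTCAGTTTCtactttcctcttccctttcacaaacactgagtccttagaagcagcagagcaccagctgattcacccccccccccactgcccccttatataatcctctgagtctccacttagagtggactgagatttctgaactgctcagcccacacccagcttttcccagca
Isg15 (chr4:156200769-156201068, minus strand): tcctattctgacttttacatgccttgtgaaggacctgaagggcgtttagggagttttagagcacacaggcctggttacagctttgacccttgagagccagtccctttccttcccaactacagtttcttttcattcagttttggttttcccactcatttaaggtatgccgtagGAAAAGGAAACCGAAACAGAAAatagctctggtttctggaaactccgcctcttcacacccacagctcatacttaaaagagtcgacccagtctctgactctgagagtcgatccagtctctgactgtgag
Ifitm3 (chr7:141010695-141010994, minus strand): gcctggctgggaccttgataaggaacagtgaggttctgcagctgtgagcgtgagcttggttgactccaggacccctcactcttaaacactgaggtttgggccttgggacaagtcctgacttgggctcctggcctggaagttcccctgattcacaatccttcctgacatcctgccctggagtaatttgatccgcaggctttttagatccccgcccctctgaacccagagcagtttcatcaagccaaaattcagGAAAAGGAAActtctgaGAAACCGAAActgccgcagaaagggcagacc
Oasl2 (chr5:114896684-114896983, plus strand): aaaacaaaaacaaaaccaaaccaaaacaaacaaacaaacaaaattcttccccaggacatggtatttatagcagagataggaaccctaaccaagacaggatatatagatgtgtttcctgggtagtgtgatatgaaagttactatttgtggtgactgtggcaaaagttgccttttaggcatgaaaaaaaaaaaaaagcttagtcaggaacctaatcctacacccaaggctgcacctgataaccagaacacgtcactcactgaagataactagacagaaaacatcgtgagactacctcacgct
Ube2l6 (chr2:84798578-84798877, plus strand): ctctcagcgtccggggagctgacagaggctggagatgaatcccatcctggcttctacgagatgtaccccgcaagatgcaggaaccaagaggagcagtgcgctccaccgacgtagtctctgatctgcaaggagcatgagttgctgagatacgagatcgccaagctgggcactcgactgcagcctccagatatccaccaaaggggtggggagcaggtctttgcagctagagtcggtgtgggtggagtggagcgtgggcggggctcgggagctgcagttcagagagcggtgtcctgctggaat

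The core began 104 and 85 bases before the start site in Ifit1 and 156 and 122 bases before it in Ifit3. Isg15 held 3 overlapping matches that began 78, 72 and 66 bases before its start site. In Ifitm3 both matches lay 2 and 19 bases past the start, and Rsad2, whose promoter on chromosome 12 is not printed, held 1 match 120 bases before it. Thus 5 of the 8 promoters held the motif, and 1131 of 32851 promoters of the same length did (3.44%). Oasl2, Ifi44 and Ube2l6 held no match, which says only that these letters are not in this window.

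Total counts ran from 45.9 to 120.8 M per library in the NAc and from 67.6 to 104.4 M in the PFC. The lowest count of any of the 10 genes in any library was 14, so no value rested on a count of 0. Levels are given as CPM, the count divided by the library size after TMM scaling and expressed per 1 M, as computed here. In all 96 libraries Xist and the Y-linked genes followed the labelled chromosomes. All 6 markers of striatal projection neurons were higher and all 6 markers of cortical excitatory neurons lower in the NAc than in the PFC, although the summed level of the cortical markers varied from 57.2 to 974 CPM among NAc libraries.

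Per kilobase of exon, Ifitm3 was the most abundant member in both regions, at 10.8 CPM per kb in the NAc and 7.71 CPM per kb in the PFC, means over 48 libraries. Ifit3 followed at 5.39 CPM per kb in the NAc and 3.77 CPM per kb in the PFC. Ifi44 was the least abundant, at 0.242 CPM per kb in the NAc and 0.186 CPM per kb in the PFC. Ube2l6 differed most in rank between the regions, with the sixth place in the NAc and the third in the PFC. Reads of Ifit3 can be shared with its near-identical copy Ifit3b, and those of Ifitm3 with other Ifitm genes. Parp9 overlaps Dtx3l and Gm15564 on the opposite strand, and the counting's strand setting is not given in the sources used here, so these 3 levels are uncertain.

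In the NAc each of the 10 genes had less RNA in XX mice than in XY mice, and XY- mice, which have ovaries, had the highest median of each gene. Ifit1 had lowest, median and highest levels of 1.44, 1.72 and 2.65 CPM in XXSry mice (n = 12), 1.39, 2.32 and 6.31 CPM in XX mice (n = 11), 2.15, 2.93 and 24.1 CPM in XY-Sry mice (n = 12) and 1.45, 10.3 and 25.9 CPM in XY- mice (n = 13). Thus 9 of 13 XY- libraries lay above every XX and XXSry library, but the ranges overlapped, since XY- control animal 16 was among the lowest of all. Of the XY-Sry libraries only that of control animal 33 rose above all XX and XXSry libraries. The difference for Ifit1, XX minus XY, was -1.67 ± 0.28 on the log2 scale (edgeR estimate ± SE, both gonads weighted equally).

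**Figure D1:**
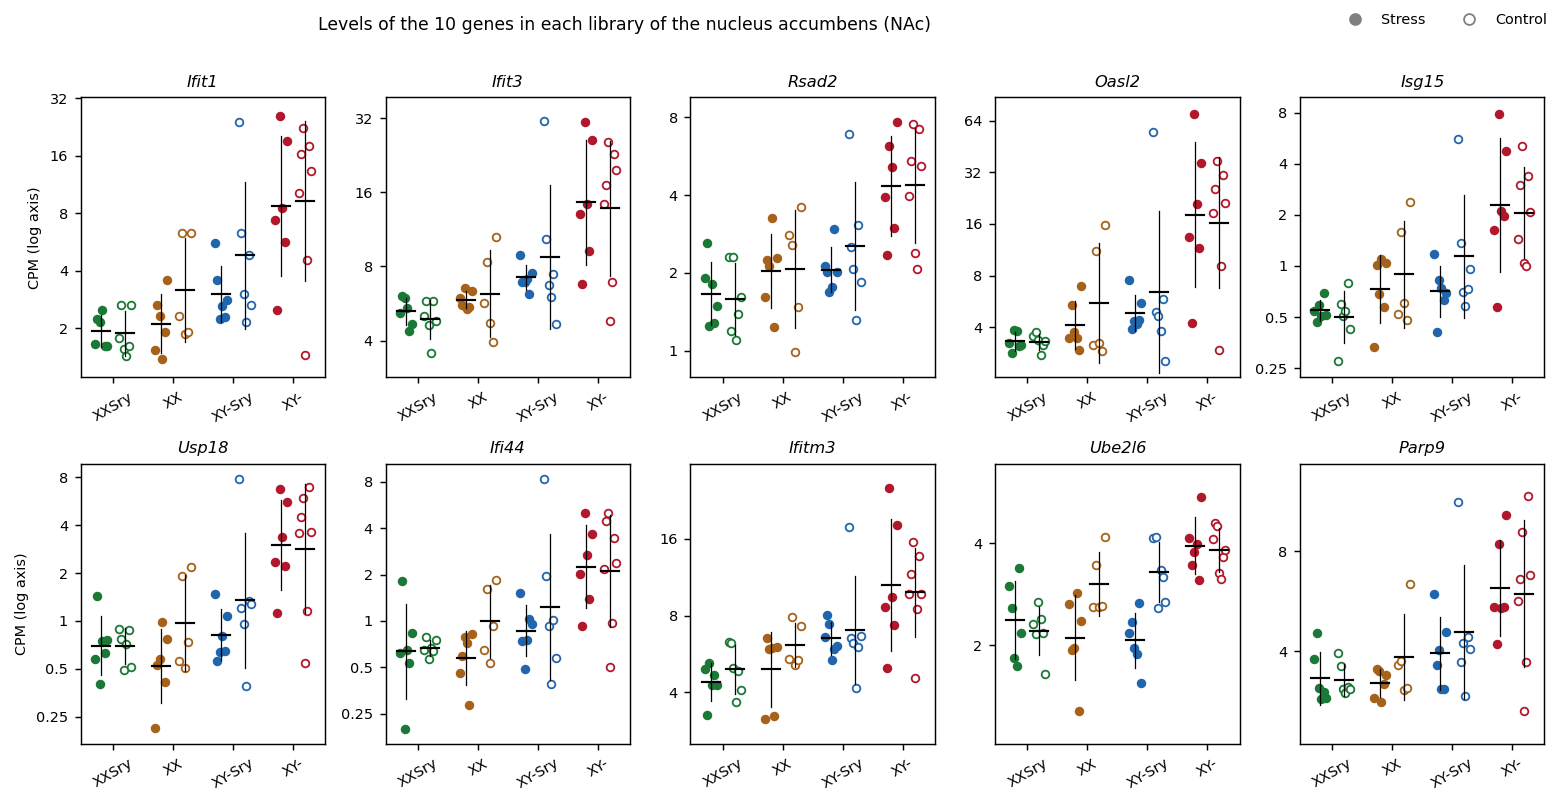
Level of each gene in each of the 48 NAc libraries, in CPM on a log axis, by genotype, with stressed animals filled and controls open. Horizontal bars are means of log2 CPM and vertical bars their SD. XY- mice have the highest median of each gene, and 1 XY-Sry control (animal 33, 24.1 CPM of Ifit1) lies far above the rest of its group.

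Oasl2 spanned the widest range in CPM. Its lowest, median and highest levels were 2.74, 3.27 and 3.85 CPM in XXSry mice, 2.90, 3.48 and 15.8 CPM in XX mice, 2.55, 4.50 and 55.4 CPM in XY-Sry mice and 2.92, 20.8 and 70.2 CPM in XY- mice. The 12 XXSry libraries lay close together, while the XY- libraries spread from the level of the XXSry mice to the highest level of all. The XX minus XY difference of Oasl2 was -1.65 ± 0.32 on the log2 scale. Ifit3 reached medians of 5.12, 5.69, 7.04 and 14.4 CPM in XXSry, XX, XY-Sry and XY- mice, with an XX minus XY difference of -1.07 ± 0.19. Rsad2 had medians of 1.54, 2.25, 2.05 and 5.14 CPM in the same order of genotypes, and a difference of -0.92 ± 0.17. For both genes 9 of 13 XY- libraries and 1 of 12 XY-Sry libraries exceeded every XX and XXSry library.

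The Isg15 conjugation genes differed to unequal extents. Usp18, the deconjugating protease, had lowest, median and highest NAc levels of 0.399, 0.733 and 1.44 CPM in XXSry mice, 0.212, 0.575 and 2.17 CPM in XX mice, 0.389, 1.02 and 7.79 CPM in XY-Sry mice and 0.545, 3.60 and 6.91 CPM in XY- mice. Of the XY- libraries, 10 of 13 stood above all XX and XXSry libraries, and the XX minus XY difference was -1.60 ± 0.27. Isg15 itself had medians of 0.528, 0.679, 0.732 and 2.07 CPM in XXSry, XX, XY-Sry and XY- mice and a difference of -1.31 ± 0.26, with 5 of 13 XY- libraries above all XX and XXSry libraries. Ube2l6, the conjugating enzyme, differed least, by -0.43 ± 0.09. Its lowest, median and highest levels were 1.64, 2.24 and 3.38 CPM in XXSry mice, 1.29, 2.60 and 4.18 CPM in XX mice, 1.56, 2.62 and 4.17 CPM in XY-Sry mice and 3.12, 3.81 and 5.48 CPM in XY- mice. XY- mice were thus shifted as a group, with an SD of log2 CPM of 0.235. The other genes had SDs from 0.606 (Parp9) to 1.28 (Oasl2) in XY- mice.

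Ifi44, Ifitm3 and Parp9 were also highest in XY- mice. Ifi44 had NAc medians of 0.647, 0.719, 0.943 and 2.36 CPM in XXSry, XX, XY-Sry and XY- mice, and an XX minus XY difference of -1.46 ± 0.28. Ifitm3 had medians of 4.75, 5.92, 6.38 and 9.68 CPM and a difference of -0.80 ± 0.16, and Parp9 medians of 3.09, 3.39, 4.06 and 5.68 CPM and a difference of -0.66 ± 0.13. The ranges of the 4 genotypes overlapped for all 3 genes.

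Over both gonad types all 10 genes passed the genome-wide threshold (edgeR, adjusted p below 0.05) as lower in the NAc of XX mice, where 0.584% of 19684 genes passed it in either direction and 0.508% as lower. Among mice with ovaries alone all 10 passed it (0.533% of all genes did), and among mice with testes alone none (0.132%). Since the genes were named for this contrast, nothing is read from those counts. The median difference of the 10 was -1.19 on the log2 scale, and over all genes it was near 0. Within cohorts 1, 2 and 3, which are parts of the same libraries, it was -1.02, -1.37 and -1.76.

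In the PFC XX mice again had less RNA of each gene than XY mice, and all 10 genes had their highest median in XY- mice, with fewer very high libraries. Ifit1 had lowest, median and highest levels of 1.10, 2.08 and 2.59 CPM in XXSry mice, 1.07, 2.20 and 3.99 CPM in XX mice, 1.60, 2.82 and 4.97 CPM in XY-Sry mice and 2.39, 3.61 and 18.2 CPM in XY- mice. The highest value was that of XY- stressed animal 32, and the next XY- library had 4.95 CPM. Only 4 of 13 XY- libraries and 3 of 12 XY-Sry libraries lay above all XX and XXSry libraries. The XX minus XY difference of Ifit1 was -0.80 ± 0.18 on the log2 scale.

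**Figure D2:**
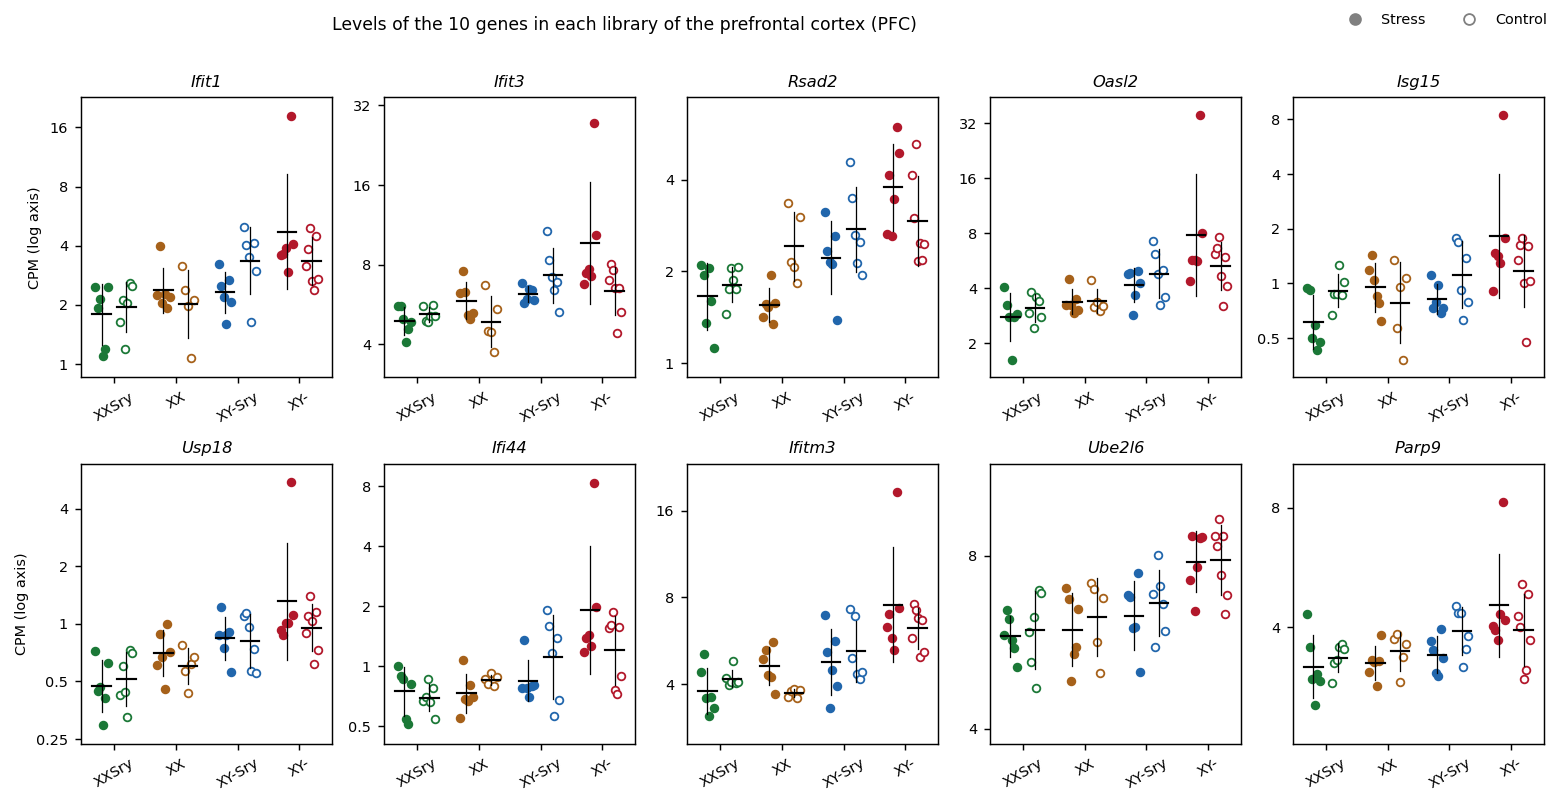
Level of each gene in each of the 48 PFC libraries, in CPM on a log axis, drawn as for the NAc (filled points stressed, open points control, bars mean and SD of log2 CPM). The single high XY- stressed library (animal 32, 18.2 CPM of Ifit1) is the highest point of 9 of the 10 genes.

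Oasl2, Ifi44, Ifitm3 and Ube2l6 each had 10 of 13 XY- libraries above all XX and XXSry libraries in the PFC, the highest count there. Oasl2 had lowest, median and highest PFC levels of 1.62, 2.90 and 4.04 CPM in XXSry mice, 2.92, 3.24 and 4.49 CPM in XX mice, 2.86, 4.79 and 7.27 CPM in XY-Sry mice and 3.20, 5.71 and 35.5 CPM in XY- mice, and 7 of 12 XY-Sry libraries were also above all XX and XXSry libraries. Its difference was -0.86 ± 0.18. Ube2l6 had PFC medians of 5.86, 6.47, 6.70 and 8.31 CPM in XXSry, XX, XY-Sry and XY- mice and again the smallest difference, -0.27 ± 0.05, with Parp9 close to it at -0.28 ± 0.07. The remaining differences ran from -0.52 ± 0.12 for Ifit3 to -0.80 ± 0.17 for Usp18 and -0.80 ± 0.19 for Ifi44. Of the 10 genes, 9 passed the genome-wide threshold as lower in XX mice, where 1.12% of 19292 genes passed it and 0.845% as lower, and Isg15 (-0.64 ± 0.21) did not. Parp9 lost this call in 28 of 57 alternative settings. The genes were named for this contrast, so nothing is read from these counts, as in the NAc. The median of -0.69 became -0.57 without the PFC library of animal 32, and it was -0.58, -0.47 and -1.30 within cohorts 1, 2 and 3.

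The spread within a genotype was widest in XY- mice in the NAc, while in the PFC that order rested on 1 library. The SD of log2 CPM, taken as the median over the 10 genes, was 0.316 in XXSry, 0.666 in XX, 0.815 in XY-Sry and 0.939 in XY- mice in the NAc. In the PFC it was 0.300, 0.279, 0.394 and 0.678. XY- mice were the most variable genotype for 8 of the 10 genes in the NAc and for 9 in the PFC. Without animal 32 the PFC value of XY- mice was 0.317, below the 0.394 of XY-Sry mice, and XY- mice were the most variable genotype for 3 genes, Ifit3, Rsad2 and Parp9. The SD of Ifit1 in the PFC of XY- mice was then 0.323, against 0.733 with that library. Without the NAc library of animal 33 the XY-Sry value there was 0.404, and XY- mice were the most variable for 9 genes. With all libraries, XXSry mice were the least variable for 9 genes in the NAc and 6 in the PFC.

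XX minus XY differences were larger among mice with ovaries (XX minus XY-) than among mice with testes (XXSry minus XY-Sry). In the NAc they ran from -0.63 ± 0.12 (Ube2l6) to -2.34 ± 0.38 (Usp18) with ovaries, median -1.58, and from -0.22 ± 0.13 (Ube2l6) to -1.19 ± 0.41 (Ifit1) with testes, median -0.79. The test of that difference, the chromosome by gonad interaction, was above 0 for all 10 genes (median 0.77) and was called for none of them, with a smallest adjusted p of 1 (edgeR). At an unadjusted p under 0.05 there were 3 genes, Usp18 (1.47 ± 0.53), Ube2l6 (0.41 ± 0.18) and Parp9 (0.55 ± 0.27), and 559 of all 19684 genes. In the PFC the medians were -0.89 with ovaries, where 6 genes were called (0.56% of all genes), and -0.41 with testes, where 0 were (0.171%), and the interaction was again above 0 for all 10 genes (median 0.35) and called for none (smallest adjusted p 0.994, edgeR). There 1 gene, Ifi44, had an unadjusted p under 0.05, and 839 of all 19292 genes did. Without XY- stressed animal 32 the PFC median was 0.08. No gene of either region was called for this interaction (0%). Since the genes were named for XX minus XY, nothing is read from the counts called within 1 gonad type.

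Gonad type was not the contrast that named the genes, although they were chosen with earlier results of these data known. XY- mice, which had the highest medians, also form part of the ovary side of the gonad contrast. Its direction is therefore not fully separate from that choice. All 10 genes had lower values with testes in both regions, and none passed the genome-wide threshold. In the NAc, Isg15 averaged 0.870 ± 1.04 CPM in mice with testes and 1.93 ± 1.81 CPM in mice with ovaries (SD, n = 24 each), a testes minus ovaries difference of -1.15 ± 0.25 on the log2 scale (95% interval -1.65 to -0.66, adjusted p 0.126 by edgeR). Rsad2 differed by -0.73 ± 0.16 and Ube2l6 by -0.38 ± 0.09, at the same adjusted p of 0.126. Oasl2 had a median of 3.79 CPM (2.55 to 55.4) with testes and of 10.1 CPM (2.90 to 70.2) with ovaries, and its difference was -1.21 ± 0.30 (adjusted p 0.211, edgeR). The other 6 genes lay between -0.35 ± 0.13 (Parp9) and -0.99 ± 0.27 (Ifit1). All 10 had an unadjusted p under 0.05, as did 1826 of 19684 genes, of which 2 were called (0.0102%).

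**Figure D3:**
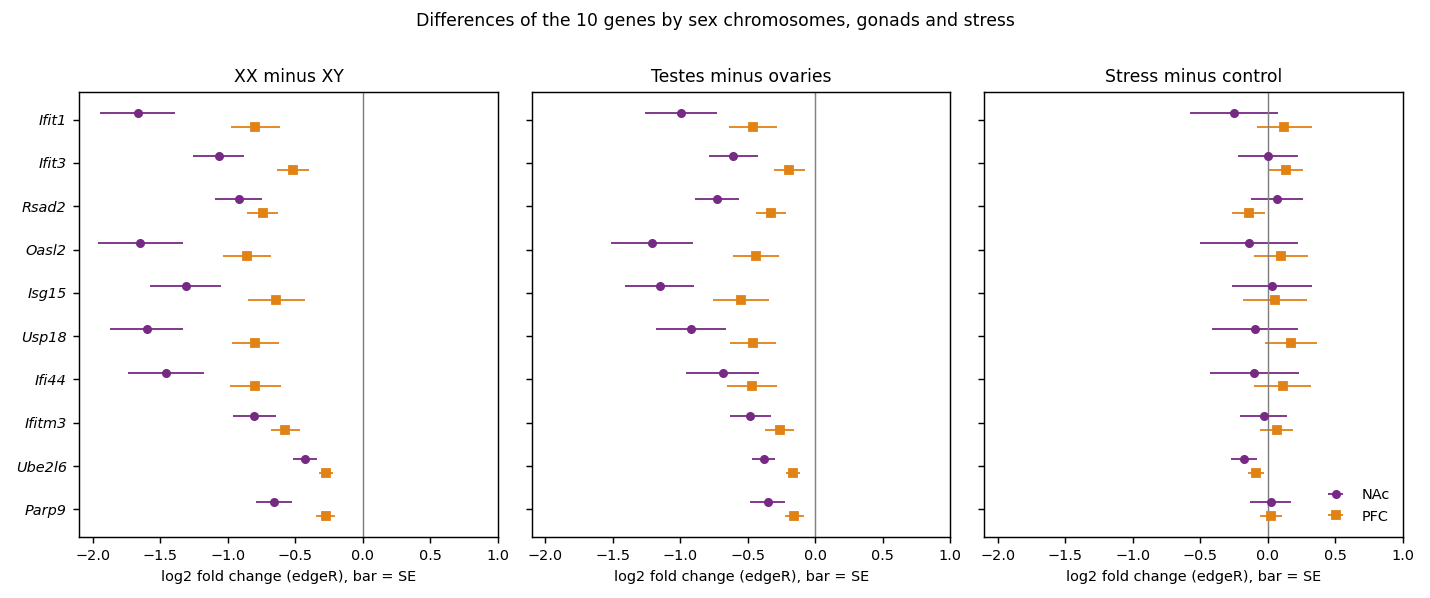
Log2 fold change of each gene (point, bar = SE, edgeR) for XX minus XY, testes minus ovaries and stress minus control, NAc as circles above PFC squares. All points lie below 0 for chromosomes and for gonads, and for stress they lie around 0 (medians -0.06 in the NAc and 0.08 in the PFC).

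This outcome for the NAc depended on single libraries and on the tool. Without XY-Sry control animal 33, a mouse with testes, 9 of the 10 genes were called lower with testes, all but Parp9, with Oasl2 at -1.55 (adjusted p 0.000516) and Isg15 at -1.34 (adjusted p 0.000723, edgeR), and 68 genes were called over the whole table (0.346%). Without XY- stressed animal 15, a mouse with ovaries and low levels, 2 genes were called, Isg15 and Rsad2, among 6 in all (0.0305%). DESeq2 on all libraries called 4, Isg15, Rsad2, Ube2l6 and Oasl2, among 19 in all (0.0965%). Isg15 and Rsad2 were each called in 3 of 57 alternative settings, the most of any of the 10. Without XY- stressed animal 32 none of the 10 was called (smallest adjusted p 0.133, edgeR). Among XY mice alone the differences were larger, with a median of -1.06 and a smallest adjusted p of 0.104 by edgeR, and 10 of 10 genes were called without animal 33, among 111 in all (0.564%), and 5 without animal 15, among 22 in all (0.112%). Among XX mice the median was -0.27, and the smallest adjusted p was 0.998 (edgeR). Within cohorts the NAc medians were -0.55, -0.76 and -1.19 in cohorts 1, 2 and 3.

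In the PFC the testes minus ovaries differences were smaller, from -0.16 ± 0.07 (Parp9) to -0.55 ± 0.20 (Isg15), with a median of -0.39 and a smallest adjusted p of 0.429 (edgeR). At an unadjusted p under 0.05 there were 9 of the 10 genes, all but Ifit3, and 1301 of 19292 genes, of which 9 were called (0.0467%). Among XX mice alone and XY mice alone none of the 10 was called either, where 0.00518% and 0.0259% of all genes were. The median was -0.27 without XY- stressed animal 32, and -0.25, -0.01 and -0.99 within cohorts 1, 2 and 3. Markers of several cell types also had testes minus ovaries differences below 0, none of them called. All 5 red blood cell markers were below 0 in each region (medians -0.42 in the NAc and -0.39 in the PFC). In the PFC all 10 microglia markers (median -0.07), all 5 border macrophage markers (-0.31), all 6 meningeal fibroblast markers (-0.23) and all 6 astrocyte markers (-0.02) were below 0, and in the NAc 9 of 10 microglia markers were (-0.07). The summed PFC level of the microglia markers averaged 354 ± 20.2 CPM in mice with testes and 373 ± 37.5 CPM in mice with ovaries (SD, n = 24 each). Other lists had higher mean sums with testes than with ovaries. In the NAc these included border macrophage markers (2.09 against 1.93 CPM) and endothelial markers (188 against 184 CPM). In the PFC they included striatal projection neuron markers (94.9 against 89.1 CPM) and cortical excitatory neuron markers (2090 against 2060 CPM). The part of these markers in the result was not tested.

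Stress was followed by no called change of any of the 10 genes in either region, with 0 called among all genes as well (0% of 19684 and of 19292). Ifit1 had lowest, median and highest NAc levels of 1.39, 2.50 and 25.9 CPM in stressed mice and 1.44, 2.84 and 24.1 CPM in controls (n = 24 each), ranges that overlapped almost fully. Its stress minus control difference was -0.25 ± 0.32 (95% interval -0.88 to 0.38) in the NAc and 0.12 ± 0.20 (-0.28 to 0.52) in the PFC. The 10 differences ran from that value up to 0.07 ± 0.19 (Rsad2) in the NAc and from -0.14 ± 0.12 (Rsad2) to 0.17 ± 0.19 (Usp18) in the PFC. None of the 10 had an unadjusted p under 0.05, against 903 of all genes in the NAc and 1105 in the PFC (edgeR), and DESeq2 called none of the 10. The median was 0.07 in the NAc without XY-Sry control animal 33 and -0.02 in the PFC without XY- stressed animal 32. The cohorts did not share a direction. In cohorts 1 and 2 the medians of the 10 were -0.25 and -0.66 in the NAc and -0.11 and -0.36 in the PFC, and in cohort 3, which held 3 controls, all XY, they were 1.35 and 1.03.

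Within single genotypes the stress differences depended on the same few libraries. In the PFC of XY- mice Oasl2 had 4.38, 5.62, 5.68, 5.71, 8.01 and 35.5 CPM in the 6 stressed animals, against 3.20, 4.13, 4.68, 5.90, 6.14, 6.63 and 7.65 CPM in the 7 controls. Apart from animal 32 at 35.5 CPM the groups overlapped. The 10 differences had a median of 0.74 and a smallest adjusted p of 0.282 for Ifit3 (0.74 ± 0.22, edgeR), 8 of 10 had an unadjusted p under 0.05, as did 1762 of all 19292 genes, and without animal 32 the median was 0.13. In the NAc of XY-Sry mice the median was -0.59 with all libraries and 0.18 without control animal 33. The other genotypes had medians of 0.19 (XXSry), -0.32 (XX) and 0.27 (XY-) in the NAc and -0.11 (XXSry), 0.04 (XX) and -0.30 (XY-Sry) in the PFC, with no gene called. Interactions of stress with chromosomes or gonads were called for none of the 10 genes in either region, at a smallest adjusted p of 0.623 for Ifit3 in the PFC gonad by stress term (-0.67 ± 0.23, edgeR).

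Between regions of the same animals, 6 of the 10 genes differed, in a comparison where 85.9% of 19918 genes were called. Ube2l6 was lower in the NAc in 48 of 48 animals, at 2.92 CPM in the NAc and 6.65 CPM in the PFC on average, a NAc minus PFC difference of -1.37 ± 0.05 on the log2 scale (adjusted p 5.01e-29, edgeR with the animal as a block). Higher in the NAc were Oasl2 (0.49 ± 0.16, adjusted p 0.00605), Usp18 (0.45 ± 0.15, 0.00486), Ifit1 (0.38 ± 0.15, 0.0158), Ifitm3 (0.29 ± 0.09, 0.00511) and Ifit3 (0.20 ± 0.10, 0.0493). Ifit3 lost its call in 6 of 13 alternative settings, among them the fit without animal 33. Oasl2 was higher in the NAc in 31 of 48 animals and Ifit1 in 32. Rsad2, Isg15, Ifi44 and Parp9 lay between -0.12 ± 0.14 and 0.08 ± 0.06 and were not called.

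**Figure D4:**
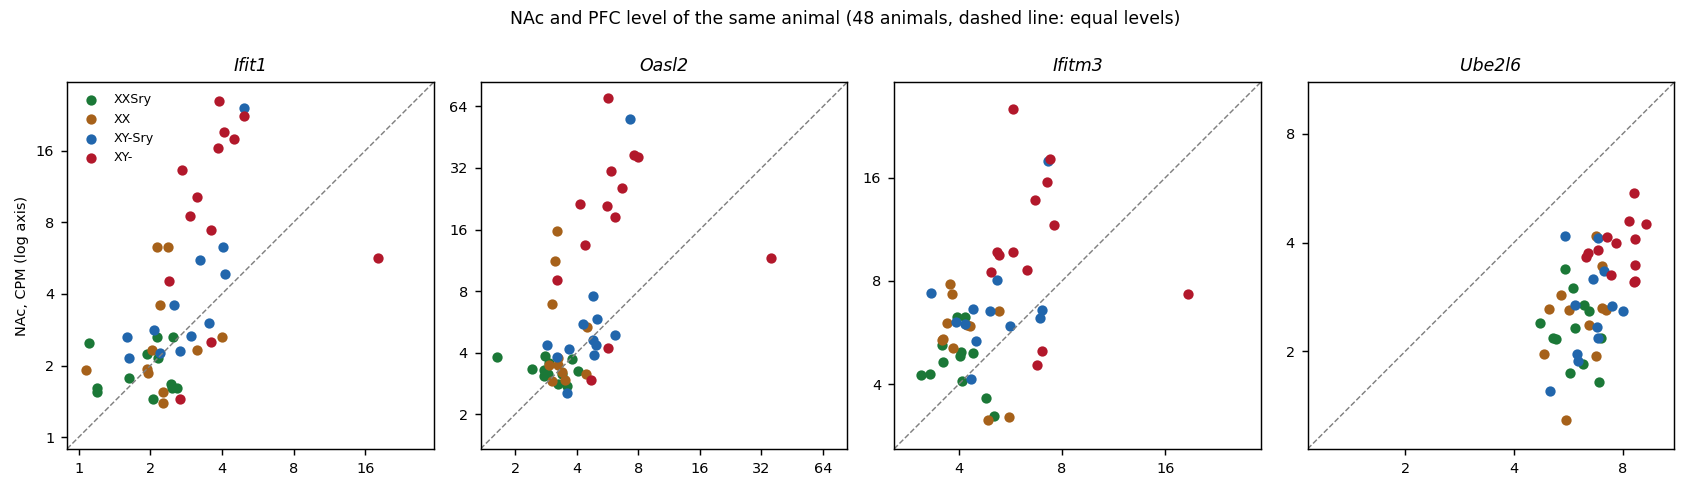
NAc level against PFC level of the same animal for 4 genes, in CPM on log axes, coloured by genotype, with a dashed line at equal levels. XY- animals reach high NAc levels at modest PFC levels for Ifit1, Oasl2 and Ifitm3, animal 32 is the reverse (5.68 CPM of Ifit1 in the NAc, 18.2 CPM in the PFC), and every Ube2l6 point lies below the line.

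The XX minus XY difference was larger in size in the NAc than in the PFC for all 10 genes (interaction median -0.51), but the interaction of region and chromosomes was called for none of them (smallest adjusted p 0.942, edgeR, with 0.0151% of all genes called). At an unadjusted p under 0.05 there were 5 of the 10 and 954 of all 19918 genes. The XX minus XY differences of both regions were known when the genes were named, so these values are a description only. The interaction of region and gonads was likewise below 0 for all 10 genes (median -0.42) and called for none (smallest adjusted p 0.844, edgeR, with 0% of all genes called). At an unadjusted p under 0.05 there were again 5 of the 10, Rsad2, Ube2l6, Oasl2, Isg15 and Ifit3, and 1046 of all genes. That of region and stress had a median of -0.05 and a smallest adjusted p of 0.982.

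High levels in the 2 regions came partly from the same animals. Of the 6 animals with the highest level in each region, 4 were shared for Ifit1, Oasl2, Isg15, Ifi44 and Ifitm3, 3 for Ifit3, Rsad2, Usp18 and Parp9, and 2 for Ube2l6. For Ifit1, 5 of the 6 NAc animals and 4 of the 6 PFC animals were among the 13 XY- mice. Some sharing follows from genotype, and sharing beyond that was not tested. Among those shared, XY- control animal 13, XY- stressed animal 41 and XY-Sry control animal 33 recurred most. Animal 32, first in the PFC for 9 genes, had 11.7 CPM of Oasl2 in the NAc, below the XY- median of 20.8 CPM there. Animal 26 was the reverse, with 70.2 CPM of Oasl2 in the NAc and 5.71 CPM in the PFC.

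After removal of group and cohort means, the 10 genes varied together from library to library. The correlation of their residual log2 CPM over 48 libraries had a median of 0.796 over 45 pairs in the NAc, from 0.275 (Ube2l6 with Parp9) to 0.941 (Ifit1 with Oasl2), and of 0.730 in the PFC, from 0.187 (Isg15 with Ube2l6) to 0.900 (Ifit3 with Oasl2). Without the highest library the medians were 0.757 and 0.588. Ube2l6 was the least like the others, with a median correlation of 0.377 in the NAc and 0.316 in the PFC, where the remaining genes had at least 0.755 and 0.554. The libraries share their depth and tissue makeup, so these values are given as a description only.

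The genes outside the list whose residuals were most like the average of the 10 were ranked by Pearson correlation over the 48 libraries of a region. In the NAc, among 14714 genes, they included Rnf213 (0.944), Gbp3 (0.928), Bst2 (0.927), Ifit3b (0.922), Ddx58 (0.919), Parp14 (0.895) and Eif2ak2 (0.895). In the PFC, among 14373 genes, they were Rnf213 (0.910), Irf7 (0.904), Ddx58 (0.879), Lgals9 (0.872), Parp14 (0.852), Eif2ak2 (0.849), Parp12 (0.843) and Lgals3bp (0.834). Rnf213, Ddx58, Parp14 and Eif2ak2 were on both lists. Without the highest library these correlations ran from 0.865 to 0.929 in the NAc and from 0.676 to 0.833 in the PFC.

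Other steps of the pathway were read from lists chosen with earlier results of these data known. Of 39 further effectors tested, 18 were lower and 0 higher in the NAc of XX mice than of XY mice (median -0.47), and 16 were lower and 0 higher in the PFC (median -0.32). Over all genes 0.508% were called lower in the NAc and 0.845% in the PFC. Mx1, a GTPase that traps viral particles, averaged 0.240 ± 0.142 CPM in XX mice and 1.22 ± 1.26 CPM in XY mice in the NAc (SD, n = 23 and 25), a difference of -2.07 ± 0.32. Oas1b, a 2′-5′-oligoadenylate synthetase family member, fell by 1.37 ± 0.24, Slfn8 by 1.03 ± 0.18 and the helicase-like Ddx60 by 1.30 ± 0.25 on the same scale. In the PFC the smallest p-values were those of Ddx60 (-0.82 ± 0.14), Trim25 (-0.29 ± 0.06), Lgals3bp (-0.66 ± 0.13) and Rtp4 (-0.59 ± 0.13), the last of which overlaps Masp1 on the opposite strand.

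**Figure D5:**
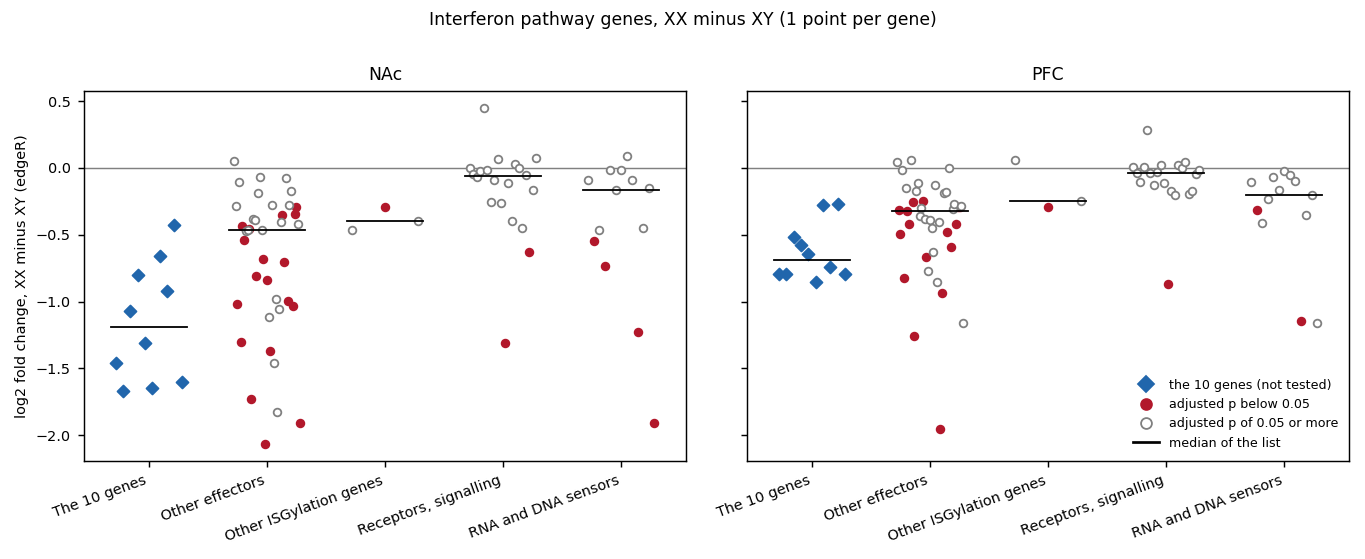
Log2 fold change, XX minus XY, of each gene of the interferon lists in the NAc and the PFC, 1 point per gene, with the list's median as a bar. Points called lower lie below 0 by construction. The median of all receptor and signalling genes is -0.06 in the NAc and -0.04 in the PFC, and Irf7 among them lies at -1.31 and -0.87.

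Among the genes of Isg15 conjugation outside the 10, Trim25 was lower in XX mice in both regions (-0.29 ± 0.07 in the NAc). Uba7, the activating enzyme, differed by -0.40 ± 0.13 in the NAc and -0.25 ± 0.08 in the PFC, and Herc6, the mouse ligase, by -0.47 ± 0.13 and 0.06 ± 0.03, neither of them called. No gene of the 16 interferon ligands looked for was in the tables analysed here. Of 20 receptors and signalling genes, Irf7 was lower in XX mice in both regions (-1.31 ± 0.27 in the NAc and -0.87 ± 0.17 in the PFC). Irf7, a transcription factor that amplifies the response, overlaps Phrf1 on the opposite strand. The receptor chain Ifnar1, given outside the naming rule below, averaged 46.7 ± 1.54 CPM in XX mice and 46.6 ± 1.76 CPM in XY mice in the PFC. The means differed by less than either SD, which does not show that they are equal.

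Of 13 RNA and DNA sensors, 4 were lower in the NAc of XX mice, Tlr7, Zbp1, Ifih1 and Ddx58, and 2 in the PFC, Tlr7 and Ddx58. Tlr7 averaged 3.37 ± 0.637 CPM in XX mice and 8.003 ± 2.02 CPM in XY mice in the NAc, a difference of -1.23 ± 0.09 on the log2 scale. In the PFC it averaged 4.04 ± 0.516 CPM in XX mice and 8.98 ± 1.32 CPM in XY mice, a difference of -1.15 ± 0.05. Its levels moved with the chromosome complement in the same direction as the 10 genes, and its part in their difference was not tested. None of these lists had a gene called for gonads or for stress in either region (smallest adjusted p 0.199, for Ifi35 in the NAc gonad comparison, edgeR).

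Markers of cell types were also compared between XX and XY mice, where 0.584% of all genes were called in the NAc and 1.12% in the PFC. In the NAc 0 of 10 microglia markers were called between XX and XY mice (median -0.06), and their summed level ran from 334 to 422 CPM in XX mice and from 302 to 549 CPM in XY mice. In the PFC 1 of 10, Siglech, was lower in XX mice (-0.20 ± 0.04), and the sums ran from 322 to 393 CPM in XX and from 313 to 485 CPM in XY mice. Of 5 border macrophage markers, Lyve1 was lower in the PFC of XX mice (-0.61 ± 0.16), with a list median of -0.49, and none was called in the NAc. Only Trbc2 and Cd79a of 7 lymphocyte markers were in the tables, and neither was called. Astrocyte markers had 1 of 6 called, Gja1 in the PFC (-0.10 ± 0.03), and endothelial markers 0 of 5 in both regions. All 5 red blood cell markers were below 0 in each region (medians -0.27 in the NAc and -0.32 in the PFC) and all 6 meningeal fibroblast markers in the PFC (-0.19), none of them called. In tissue punches, fewer cells of a type and less RNA per cell cannot be told apart, and the part of these markers in the results was not tested.

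Both outlying libraries stood high in microglia markers. The NAc library of animal 33 had the highest microglia sum of all 48 NAc libraries, 549 CPM against a median of 380 CPM, and the PFC library of animal 32 the highest of the PFC, 485 CPM against a median of 361 CPM. The PFC library of animal 32 also had the highest astrocyte sum (1064 CPM) and the lowest red blood cell sum (40.9 CPM) of the PFC. It ranked 1st of 48 in cortical excitatory neuron markers (2241 CPM), 44th in oligodendrocyte markers and 46th in striatal projection neuron markers as well. The NAc library of animal 33 was 9th of 48 in the astrocyte sum and 46th in the red blood cell sum. In the other region the same animals ranked 14th (animal 33, PFC) and 13th (animal 32, NAc) in microglia markers. The part of these cell markers in the high levels of the 10 genes was not tested.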

How the data were processed

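The authors deposited raw read counts per gene for 48 NAc and 48 PFC libraries, in 1 table a region. Per the labels' protocols, polyadenylated RNA from tissue punches was sequenced as paired reads of 50 bases. The submitters' processing notes name FastQC 0.11.9, Trimmomatic 0.38, HISAT2 2.2.0, edgeR, DESeq2 and the build GRCm38, and the sources used here do not give the counting tool, its strand setting or its annotation. Symbols came from GENCODE M21, which left 123 of 19918 gene IDs unnamed.

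Counts were fitted per region with edgeR 4.0.16 (quasi-likelihood test, TMM scaling, filterByExpr), with 8 group means and cohort as a term. Regions were compared in 1 fit with the animal as a block. Library numbers in the sample titles pair the regions of an animal. P-values were adjusted over all genes tested (Benjamini-Hochberg), and genes at an adjusted p below 0.05 were called. SEs are the size of the log2 fold change over the root of F, and intervals span 1.96 SE. Alternatives were RLE scaling, other count filters, no cohort term, single cohorts, DESeq2 1.42.0, limma-voom (limma 3.58.1), the region fit without the block, and leaving out libraries. The scripts were tested on simulated data. The labels name separate mice, so p-values measure the spread between animals.

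The members and the gene lists were chosen with earlier results of these data known. All 10 members are named. From each further list, called genes were named, up to 4 with the smallest p in a contrast, and where none was called the values of the 2 with the smallest p could be given. Uba7 and Herc6 met this rule in the gonad and stress contrasts, although their XX minus XY values are given. Ifnar1 was added outside the rule. The 8 most similar genes per region and up to 2 markers per list were named, except for results not reported here.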

Additional observations from a re-analysis of the deposited data

Results flagged for a closer look

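In 160 groups of 1 gene, region, genotype and treatment, 15 had a highest library whose gap to the next exceeded Dixon's 95% critical value, 9.38% of the groups, where chance flags about 1 in 20. All 15 were high. The genes vary together, so these are not 15 separate events.

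The PFC library of XY- stressed animal 32 accounted for 8 of them. It had 18.2 CPM of Ifit1 where the next library of its group had 4.09 CPM, 27.4 CPM of Ifit3 (next 10.3), 35.5 CPM of Oasl2 (next 8.01) and 8.44 CPM of Isg15 (next 1.78). It also had 5.50 CPM of Usp18 (next 1.12), 8.31 CPM of Ifi44 (next 1.99), 18.6 CPM of Ifitm3 (next 7.36) and 8.27 CPM of Parp9 (next 4.32). The NAc library of XY-Sry control animal 33 had 55.4 CPM of Oasl2 (next 5.86), 17.9 CPM of Ifitm3 (next 6.62) and 11.3 CPM of Parp9 (next 4.40).

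The other 4 were smaller. XX control animal 50 had 6.38 CPM of Parp9 in the NAc (next 3.75). In the PFC, XX stressed animal 17 had 3.99 CPM of Ifit1 (next 2.27), XY-Sry stressed animal 8 had 1.36 CPM of Ifi44 (next 0.803) and XXSry control animal 34 had 4.81 CPM of Ifitm3 (next 4.19).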

How the results depend on the processing

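No called result reversed under any alternative that was run. Cohorts are small, with fewer samples in each. Of the 10 genes called in the NAc for XX minus XY, 3 were called in cohort 1 alone, 0 in cohort 2 alone and 1 in cohort 3 alone. Of the 9 called in the PFC, 8 were called in cohort 1 alone, 0 in cohort 2 alone and 0 in cohort 3 alone. For testes minus ovaries in the NAc (0 called), DESeq2 called 4, and among XY mice limma-voom called 3 and DESeq2 6. Leaving out each of the 48 libraries of a region in turn gave 0 to 9 called for testes minus ovaries in the NAc, 0 to 10 among XY mice and 8 to 9 for XX minus XY in the PFC. For NAc minus PFC only 7 of the 48 animals were left out, the 5 XX controls and, chosen after seeing the data, animals 32 and 33, which gave 5 to 6. DESeq2 was not run between regions.

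The sample titles pair the regions. Without the replicate block 6 of the 10 genes were called for NAc minus PFC, as with it, and the interactions of region with chromosomes, gonads and stress had 0, 0 and 0.

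Over all genes, XX minus XY in the NAc had 115 called, against 61 by limma-voom and 42, 20 and 20 in cohorts 1, 2 and 3 alone. In the PFC it had 217, against 356 by DESeq2 and 164, 25 and 24 in the cohorts. Testes minus ovaries had 2 in the NAc, against 19 by DESeq2 and 0 to 68 with 1 library left out, and 9 in the PFC, against 17 by DESeq2. In NAc libraries of XY mice alone 0 were called, against 18 by limma-voom, 36 by DESeq2 and 0 to 111 with 1 library left out. Stress in the PFC of XY- mice had 0, against 3 with RLE scaling, 6 with a stricter filter and 15 by DESeq2. Usp18, Ifi44 and Isg15 had the lowest levels, and depth limits them most.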
